A study of Mus musculus with 12 samples.

Results

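The profile of H3K27me3 over Shh was read at 434 array positions of 60 bases, of 48316 on the array outside control spots. They are all the positions that lie in chr5:28770001-28810000 (mm9), a window of 40 kb around the gene. The rule for them used coordinates alone, although the region was chosen with earlier results of these data known. Shh lies on the minus strand at chr5:28783355-28793641 and is 10.287 kb long. Its exon 1 (chr5:28793001-28793641), intron 1 (chr5:28788124-28793000), exon 2 (chr5:28787862-28788123), intron 2 (chr5:28785144-28787861) and exon 3 (chr5:28783355-28785143) were read as segments. The promoter was taken as the 1 kb upstream of the transcription start site (TSS), the near flanks reach to 5 kb beyond the TSS or past the gene end, and the far flanks are the remainder of the window. Positions followed each other with a median step of 60 bases and a largest step of 560 bases, and the 4.456 kb of the window farthest downstream of the gene held none. The antisense long non-coding RNA genes 9530036O11Rik (chr5:28784814-29260535) and Gm17493 (chr5:28792914-28807513) overlap the same DNA, so a ratio at these positions belongs to the DNA and not to 1 of the genes.

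The arrays compared native H3K27me3 ChIP DNA with input DNA from 46c mouse embryonic stem cells (mESCs), a line with GFP inserted at Sox1, and from neural progenitor cells (NPCs) made from them. The ESC populations had been transfected with an eGFP control or with a TALE-Vp64 activator, a designed DNA-binding protein fused to a viral activation domain, directed to the Shh promoter (tShh-Vp64), to the brain enhancer SBE6 (tSBE6-Vp64), to the brain enhancer SBE2 (tSBE2-Vp64) or to both enhancers at once (tSBE(6+2)-Vp64). NPCs came from N2B27 differentiation and carried no construct, and their day of differentiation is not given in the labels. Each of the 6 populations had 2 arrays (R1 and R2), which were averaged to 1 sample because the labels of 3 populations put both arrays under the same biological replicate. All populations share the 46c line. Transfection was transient, and per the study's methods transfected cells were sorted for eGFP, although whether that held for these arrays is not stated.

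H3K27me3 is deposited by polycomb repressive complex PRC2 on the tail of histone H3 and is associated with genes held silent during development. In ESCs many promoters of developmental regulators that are rich in CG dinucleotides carry the mark. Shh encodes a secreted signalling protein that patterns the ventral neural tube and the limb, and its brain enhancers lie in the gene desert upstream of it.

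All values are log2 ratios of Cy5 over Cy3, centred on each array's median, so 0 is the typical position of the array. This is the direction of the authors' deposited ratios, whereas the dye labels give ChIP DNA Cy3 and input DNA Cy5, so that by the labels every sign and every order of populations below would be the opposite. In the direction used, the TSS window of Pou5f1, a gene active in ESCs and silenced on differentiation, read -0.41 as the mean of ESC populations and 1.88 in NPCs. Fgf4, a pluripotency gene, was also higher in NPCs, by 1.72, and the neural progenitor gene Nes was lower. Pax6, a factor of neural progenitors, went the other way and was higher in NPCs by 1.22. The TSS window of Shh was higher in NPCs by 1.28. The study reports that NPCs express Shh and mESCs do not. Why the ratio was higher in NPCs at Shh and Pax6 was not tested. In bulk chromatin, a smaller share of cells with the mark and a lower level per cell cannot be told apart.

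The shape of the profile can be read from 4 single positions, taken by their values among the 226 that lay outside untranslated parts and were well above background in both channels on all 12 arrays. They are given 5′ to 3′ on the plus strand of mm9, with each CG dinucleotide in capitals.
Highest mean, in intron 1, chr5:28789006-28789065: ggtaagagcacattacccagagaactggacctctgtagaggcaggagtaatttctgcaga
Lowest mean within the gene, in intron 1, chr5:28791168-28791227: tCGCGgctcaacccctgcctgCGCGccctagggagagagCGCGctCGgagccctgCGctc
Lowest mean in the coding part of exon 3, chr5:28784487-28784546: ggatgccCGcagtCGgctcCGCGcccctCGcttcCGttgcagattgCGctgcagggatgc
Largest difference between NPCs and ESCs, chr5:28780841-28780900: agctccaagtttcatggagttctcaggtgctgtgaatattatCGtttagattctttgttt

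The highest of these, 4.606 kb downstream of the TSS, held 0 CG dinucleotides, where NPCs read 4.06 and ESC populations between 2.52 and 3.35. The lowest in the gene, in the same intron 2.444 kb downstream of the TSS, held 8 CG dinucleotides with -0.24 for NPCs and -0.83 to -0.21 for ESC populations. The position in coding exon 3 held 7, with -0.15 for NPCs and -0.55 to 0.029 for ESC populations. The first 2 of these, in the same intron, thus stood at least 3 log2 units apart in every population. The position with the largest difference lay outside the gene, 2.485 kb past its end, and held 1 CG dinucleotide. It read 2.82 and 2.77 on the NPC arrays. Among ESCs tSBE(6+2)-Vp64 was highest there at 1.13, above tShh-Vp64 (0.50), tSBE6-Vp64 (0.48), tSBE2-Vp64 (0.43) and eGFP (0.18), and no ESC array reached an NPC array. These positions were chosen for their values, which are given as a description with no test.

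**Figure D1:**
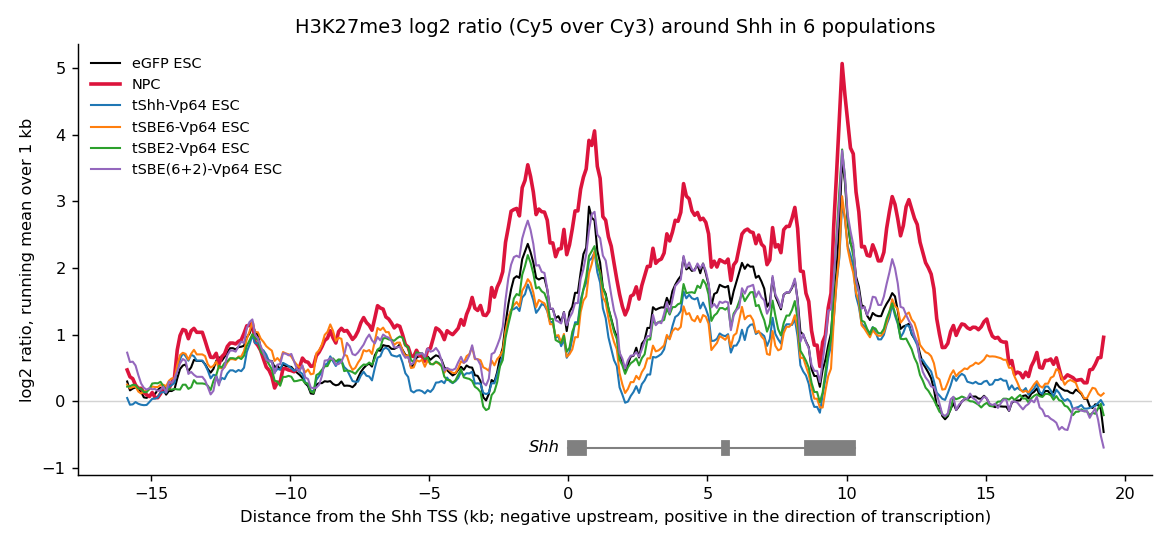
Running mean of the log2 ratio over 1 kb (vertical axis) against the distance from the Shh TSS in kb (horizontal axis, negative upstream), 1 line per population, with the exons of Shh drawn as boxes. The NPC line lies above the 5 ESC lines from about 4 kb upstream of the TSS to about 5 kb past the gene end, and all 6 lines share a spike of 2.97 to 5.07 near the end of the gene with a dip just before it.

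Over the gene body H3K27me3 was higher than over the far flanks in all 6 populations. The mean of the 128 positions between the TSS and the gene end was 2.38 and 2.31 on the NPC arrays R1 and R2, 1.71 and 1.33 in eGFP ESCs and 1.50 and 1.53 in tSBE(6+2)-Vp64 ESCs. The gene body read 1.29 and 1.25 in tSBE2-Vp64, 1.02 and 0.92 in tShh-Vp64 and 0.93 and 1.01 in tSBE6-Vp64 ESCs. NPCs were therefore highest on either array, eGFP and tSBE(6+2)-Vp64 ESCs came next with overlapping arrays, and tShh-Vp64 and tSBE6-Vp64 ESCs were lowest with overlapping arrays. The 178 positions of the far flanks had a mean of 0.70 in NPCs and 0.34 to 0.57 in ESC populations. Gene body minus far flanks was 0.97 ± 0.44 (SD, n = 6 populations), above 0 in 6 of 6, with p = 0.03125 by a two-sided exact sign-flip permutation test, the smallest p that 6 populations allow, and an adjusted p of 0.0417 over 4 contrasts. NPCs led with a difference of 1.65, before eGFP (1.14), tSBE(6+2)-Vp64 (1.08), tSBE2-Vp64 (0.90), tShh-Vp64 (0.63) and tSBE6-Vp64 ESCs (0.40). Under 6 of the 11 other settings another contrast missed the smallest p, and the adjusted p rose to 0.0625 or 0.125, with the difference above 0 in 6 of 6 populations each time.

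**Figure D2:**
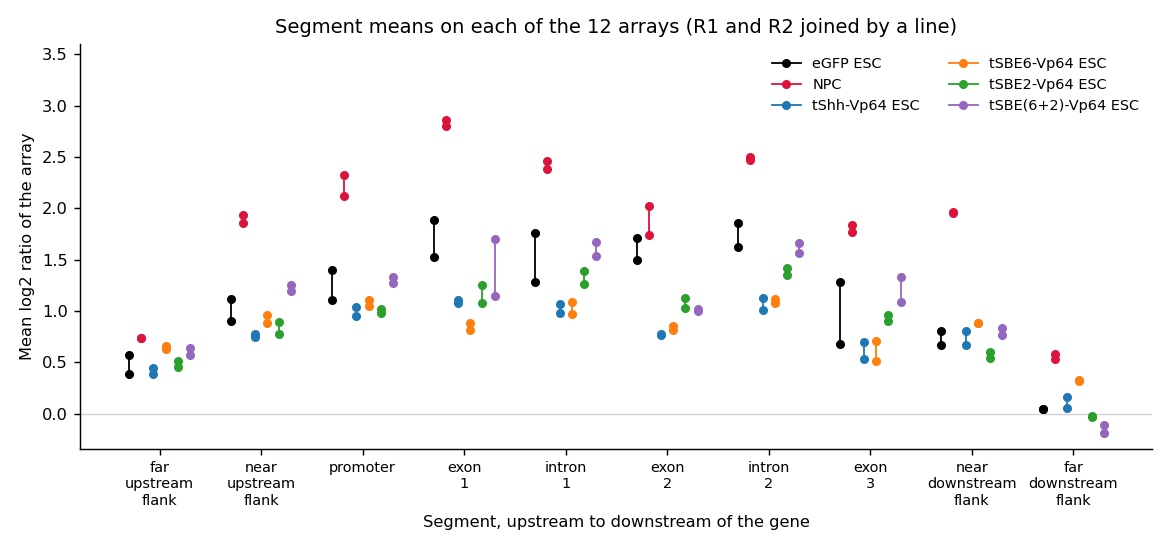
Mean log2 ratio (vertical axis) of each segment (horizontal axis, in the order of transcription) on the 12 arrays, with R1 and R2 of a population joined by a line. The red NPC points lie above all ESC points in every segment, and the far downstream flank lies nearest to 0.

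Along the gene, exon 1 and both introns were the highest segments in NPCs and exon 3 was the lowest in the body. Exon 1 (8 positions) read 2.80 and 2.86 on the NPC arrays and 0.85 to 1.70 in ESC populations, intron 1 (63 positions) 2.42 in NPCs and 1.02 to 1.60 in ESC populations, and intron 2 (33 positions) 2.49 and 1.07 to 1.74. Exon 2, with only 5 positions, read 1.88 in NPCs and 0.77 to 1.61 in ESC populations, and the 19 positions of exon 3 read 1.80 and 0.61 to 1.21. No ESC population reached the NPC value in any segment. Exons minus introns was -0.34 ± 0.041 (SD, n = 6), below 0 in 6 of 6, with an adjusted p of 0.0417 by the exact sign-flip test. The populations share their probes, so this p does not measure the spread across positions. Among positions well above background in Cy3 on every array, exons minus introns was 0.014, with the sign turned, so the exon and intron levels cannot be ordered here. Intron 1 minus intron 2 was -0.077 ± 0.072 (SD, n = 6; adjusted p of 0.0417, exact sign-flip test) and 0.097 under the same restriction.

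The gene end carried the sharpest feature of the profile. The running mean over 1 kb reached its peak 0.445 kb inside the gene end in every population, at 5.07 in NPCs, at 3.63 in eGFP ESCs, at 3.78 and 3.76 with tSBE2-Vp64 and tSBE(6+2)-Vp64, and at 3.08 and 2.97 with tSBE6-Vp64 and tShh-Vp64. Exon 3 was then split into its untranslated and coding parts after these values had been seen, so the split is a description without a test. The 7 positions of the 3′ untranslated part read 4.24 in NPCs and 2.15 to 3.16 in ESC populations, and the 12 coding positions read 0.58 in NPCs and -0.22 to 0.25 in ESC populations. Coding minus untranslated part was -2.81 ± 0.54 (SD, n = 6), between -3.66 in NPCs and -2.33 in tSBE6-Vp64 ESCs. A single exon thus held a stretch far above the flanks and a stretch near or below them in all populations. The coding part had 70.8% GC and 7.92 CG dinucleotides per position against 47.9% and 2.14 in the untranslated part. With the trend of each array's ratios with GC content removed, the difference was -3.00, and among positions well above background in Cy3 on every array it was -2.78.

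The same contrast of base composition ran along the gene body. A dip in intron 1 (chr5:28791001-28792000, 65.5% GC and 5.07 CG dinucleotides per position) had a mean of 0.54 over populations, while the adjoining tile towards the TSS had 2.25. The 33 gene body positions with at least 5 CG dinucleotides had a mean of 0.71 and the other 95 a mean of 1.74. Among those well above background in Cy3 on every array the means were 0.51 and 1.42. NPCs minus ESC populations was 1.00 in the first set and 1.17 in the second, so the excess in NPCs was present in both. Such CG-rich positions were 7.60% of those around Shh and 2.40% of those on the whole array. Across the 434 positions the log2 ratio correlated with GC content at -0.43 to -0.22 and with the CG count at -0.13 to 0.05, and with the log2 Cy3 signal, which is part of the ratio, at -0.43 to -0.29 in single populations, with Pearson's r given as a description across positions that share their arrays. The part of base composition or dye signal in the dips was not tested.

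**Figure D3:**
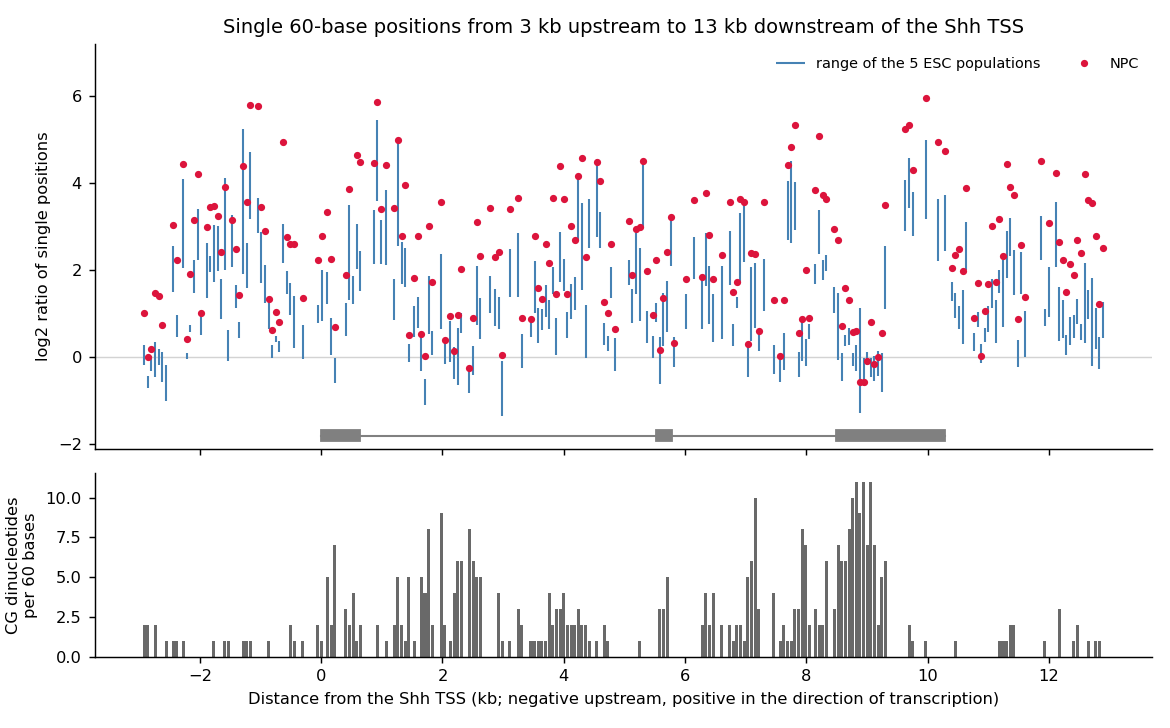
Log2 ratio of single 60-base positions from 3 kb upstream to 13 kb downstream of the Shh TSS (upper panel; red points for NPCs, blue bars for the range of the 5 ESC populations) and the number of CG dinucleotides in each position (lower panel). The stretch of coding exon 3 with the most CG dinucleotides lies at the low ratios, with a mean of 0.088 over populations, and is followed by the high ratios of the untranslated part, with a mean of 2.90.

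The study compared activators at the promoter and at distant enhancers. A window on both sides of the TSS was therefore set against the rest of the gene body. The 24 positions within 1 kb of the TSS had a mean of 2.70 in NPCs, followed by eGFP (1.67), tSBE(6+2)-Vp64 (1.63), tShh-Vp64 (1.31), tSBE2-Vp64 (1.29) and tSBE6-Vp64 ESCs (1.25). The 116 positions of the rest of the body had a mean of 2.26 in NPCs and 0.90 to 1.47 in ESC populations. This window exceeded the rest of the body by 0.27 ± 0.15 (SD, n = 6), by 0.44 in NPCs, 0.41 in tShh-Vp64, 0.33 in tSBE6-Vp64, 0.20 in eGFP, 0.16 in tSBE(6+2)-Vp64 and 0.057 in tSBE2-Vp64 ESCs (p = 0.03125, exact sign-flip test). Of the 12 arrays, R1 of tSBE(6+2)-Vp64 alone went the other way, at -0.073, and with R1 arrays only the difference was 0.22 (p = 0.0625, exact sign-flip test). The direction depended on the width of the window. Within 500 bp of the TSS, where 9 positions lie, the difference was -0.29, above 0 in 1 of 6 populations (p = 0.0625, exact sign-flip test), and within 2 kb it was 0.41 and above 0 in 6 of 6 (p = 0.03125, exact sign-flip test). Within 500 bp the mean was thus lower than the rest of the body in each ESC population but not in NPCs. The single position nearest the TSS read above the gene body mean in NPCs and in eGFP, tShh-Vp64 and tSBE(6+2)-Vp64 ESCs. It read below that mean in tSBE6-Vp64 and tSBE2-Vp64 ESCs, so a low at the TSS itself was not shown. The 12 positions of the promoter segment alone, all upstream of the TSS, gave another order. They read 2.22 in NPCs, 1.25 in eGFP, 1.30 in tSBE(6+2)-Vp64 and 1.00 in tSBE2-Vp64 ESCs. The rest of the body was higher in these populations, at 2.26, 1.47, 1.47 and 1.24. In tShh-Vp64 and tSBE6-Vp64 ESCs the segment read 0.99 and 1.07, above the rest of the body at 0.90 and 0.92.

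NPCs did not differ beyond the spread from ESC populations in the excess of the window within 1 kb of the TSS over the rest of the body. The NPC excess of promoter over body, compared with that of ESC populations, was 0.21 (SE 0.16) with a limma adjusted p of 0.338 over 78 genes with enough positions, of which 30.8% passed an adjusted p of 0.05 in either direction. Shh was at rank 27 of 78 in this difference, and the test does not show that the shapes are alike.

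At the upstream edge of the enriched stretch the level dropped within neighbouring tiles. The tile chr5:28795001-28796000, with its middle 1.859 kb upstream of the TSS, had a mean of 1.91 over populations, and the next tile away from the gene had 0.38. In NPCs the same step led from 2.89 to 1.35. The near upstream flank as a whole read 1.90 in NPCs and 0.76 to 1.22 in ESC populations, and the near downstream flank 1.96 and 0.57 to 0.88. Their difference was 0.16 ± 0.19 (SD, n = 6), above 0 in 5 of 6 populations and -0.064 in NPCs, with a p of 0.125 by the exact sign-flip test, so the flanks were not told apart. Beyond 5 kb the upstream side still read 0.74 in NPCs and 0.41 to 0.64 in ESC populations, and the downstream side 0.56 and -0.15 to 0.32.

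With ratios centred but not scaled, the enriched stretch was longer in NPCs than in each ESC population at the thresholds given here. The extents below at 0.25 of the peak height and at a fixed level were computed without scaling only. NPC ratios had a slope of 1.24 on the other populations. An edge set between flank level and peak does not move when all ratios of a population are divided by its slope. The effect of loess on the extents at 0.25, and of any scaling on those at the fixed level, was not tested. With the edge set midway between flank level and peak, the stretch was 0.5 kb in eGFP and 0.6 kb in the other ESC populations, and 2.7 kb in NPCs (2.7 kb on R1 and 0.8 kb on R2), since the spike at the gene end alone set the peak. At 0.25 of the peak height it was 15.9 kb in NPCs (16.6 and 15.7 kb on the arrays), from 2.86 kb past the gene end to 2.76 kb upstream of the TSS, against 9.1 kb in tSBE(6+2)-Vp64, 2.9 kb in tShh-Vp64 and tSBE6-Vp64, 2.3 kb in eGFP and 2.2 kb in tSBE2-Vp64 ESCs. At a fixed log2 ratio of 1 it was 19.9 kb in NPCs (18.0 and 20.0 kb on the arrays), with both edges nearly 5 kb outside the gene. At that level eGFP ESCs gave 9.5 kb from the mean of arrays that gave 14.6 and 2.6 kb on their own, and tSBE(6+2)-Vp64 ESCs 9.3 kb from arrays at 9.3 and 14.7 kb. The tShh-Vp64, tSBE6-Vp64 and tSBE2-Vp64 populations gave 2.8, 3.0 and 2.3 kb. For NPCs the arrays gave like extents only at the thresholds below the spike, and 1 NPC sample against 5 populations cannot go below p = 0.167 by an exact permutation test.

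Across 1 kb tiles, H3K27me3 around Shh was higher in NPCs (n = 1 sample of 2 arrays) than in the ESC populations (n = 5) over most of the gene and over tiles on either side. The limma values therefore rest on the spread of the ESC populations and assume that NPCs vary like them. Of the 35 tiles with at least 5 positions, 20 were higher in NPCs and 0 lower by limma (adjusted p of 0.05 over 4132 tiles of the array), beside 21.1% of all tiles called higher. NPCs read below the mean of ESC populations in 3 of the 35 tiles. The NPC value lay above all 5 ESC populations in 30 of 35 tiles, against 36.8% of all tiles, and the median difference was 0.87 around Shh and 0.045 over the array. Called tiles reached from 5.354 kb past the gene end to 7.359 kb upstream of the TSS, with a longest run of 13 and with tiles between these ends that were not called. Upstream, the tiles with their middle 4.859 and 5.859 kb from the TSS did not pass, at 0.40 and 0.19, and the tile at 6.859 kb did. Of the 11 tiles that touch the gene, 10 were called. The exception was the CG-rich tile of exon 3 (chr5:28784001-28785000), at 0.89 in NPCs and -0.094 to 0.60 in ESC populations, with a difference of 0.65 and a limma adjusted p of 0.0728.

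The tile with the TSS (chr5:28793001-28794000) read 2.57 and 2.60 on the NPC arrays, 1.42 in eGFP and 0.78 to 1.33 in the TALE-Vp64 populations, a difference from ESCs of 1.48 (SE 0.23, limma adjusted p of 0.000519). The tile with the highest mean, at the gene end (chr5:28783001-28784000), read 3.78 and 3.82 on the NPC arrays and 2.09 to 2.56 in ESC populations, and differed by 1.48 (SE 0.20, limma adjusted p of 0.000148). The largest difference lay past the gene end (chr5:28781001-28782000), where NPC arrays read 2.85 and 2.98 and ESC populations 0.94 to 1.30, and was 1.76 (SE 0.18, limma adjusted p of 2.62e-05). In these tiles neither NPC array overlapped an ESC array. The outermost called tiles differed by 0.93 downstream (chr5:28778001-28779000, limma adjusted p of 0.0193) and by 0.58 upstream (chr5:28800001-28801000, limma adjusted p of 0.044). The smallest difference, -0.17 in the far upstream flank (chr5:28804001-28805000), did not pass (limma adjusted p of 0.495).

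NPC and tSBE(6+2)-Vp64 arrays shared slide 2 and the other 4 populations slide 1, so the comparison was also made within slide 2. Within the slide it sets 1 sample against 1, and the share of all tiles with a higher NPC value was not counted. NPCs exceeded tSBE(6+2)-Vp64 ESCs in 31 of 35 tiles, with a median of 0.66 and a difference of 1.26 in the TSS tile, and with slide as a term of the fit 12 of 35 tiles were called beside 19.7% of all tiles. Scaling moved the count more than any array did. Division of each population by its slope on the others, which was 1.24 for NPCs and 0.86 to 1.20 for ESC populations, left 13 called tiles, and loess with scale normalization left 8, beside 18.0% and 14.9% of all tiles. The size of the difference depended on it too. With loess it was 0.84 in exon 1 and 0.51 in intron 1, against 1.58 and 1.12 without.

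**Figure D4:**
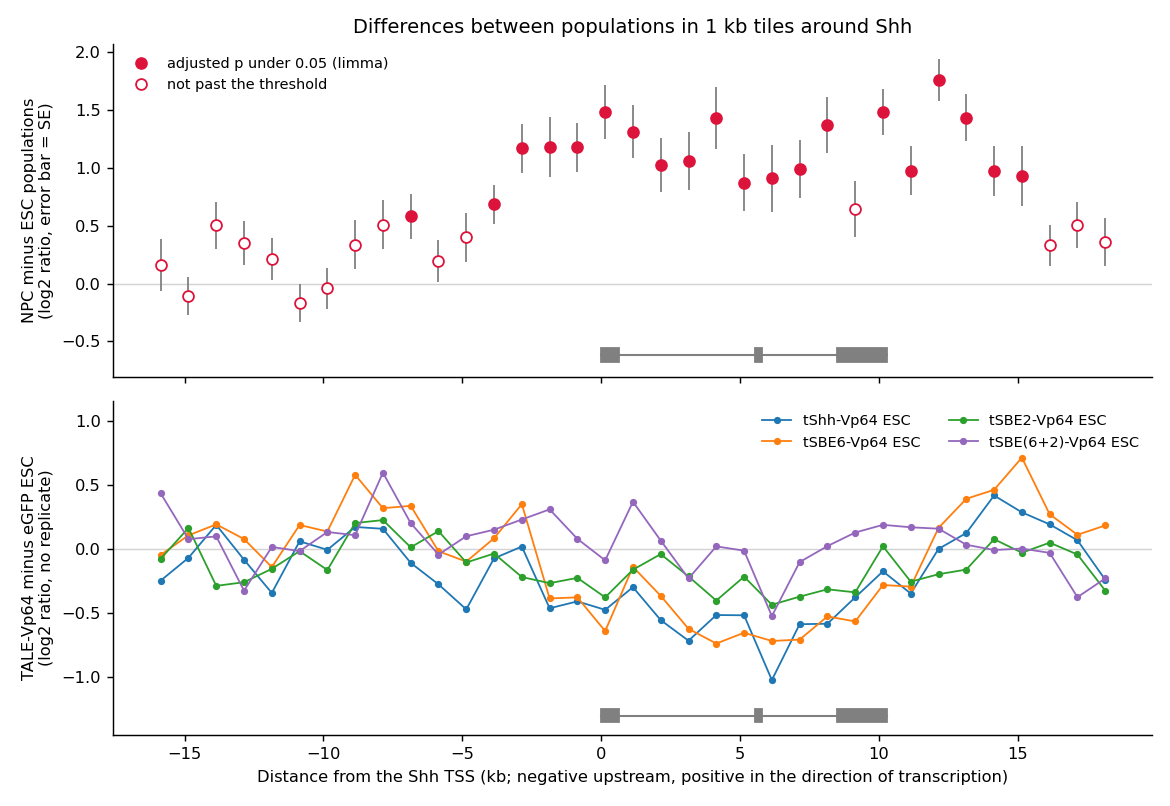
Differences in log2 ratio (vertical axes) in 1 kb tiles against the distance of the tile from the Shh TSS in kb (horizontal axis). The upper panel gives NPCs minus the 5 ESC populations with the SE from limma, filled where called, and the lower panel gives each TALE-Vp64 population minus eGFP ESCs. Most of the 20 filled points lie over the gene and its near flanks, and in the lower panel the lines of tShh-Vp64 and tSBE6-Vp64 lie below 0 across the gene, to -1.02 and -0.74.

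The activators were compared with eGFP ESCs to ask whether directing Vp64 to the promoter or an enhancer altered the mark at Shh. By limma 0 of 35 tiles were called in either direction for the 4 TALE-Vp64 populations against eGFP, as were 0.0% of all 4132 tiles, and 1 of 35 had an unadjusted p under 0.05, of 79 over the array. That tile, at the boundary of intron 2 and exon 2 (chr5:28787001-28788000), read 1.99 and 1.88 on the eGFP arrays, 0.91 and 0.91 with tShh-Vp64, 1.13 and 1.30 with tSBE6-Vp64, 1.43 and 1.56 with tSBE2-Vp64 and 1.33 and 1.49 with tSBE(6+2)-Vp64, a difference of -0.68 (SE 0.23, unadjusted p of 0.0145 from limma). Both eGFP arrays were above all TALE-Vp64 arrays there, but the difference did not survive adjustment. All 4 activator populations lay below eGFP in 5 of 35 tiles, each of them touching the gene, beside 20.0% of all tiles.

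Single activators have 1 sample each, so their differences from eGFP are values without a test. Of the 11 tiles touching the gene, tShh-Vp64 was below eGFP in 11 (median -0.52), tSBE6-Vp64 in 11 (median -0.62), tSBE2-Vp64 in 10 (median -0.32) and tSBE(6+2)-Vp64 in 5 (median 0.019). The share of all tiles of the array below eGFP was not counted for single activators. Slopes on the other ESC populations were 0.86, 0.93, 0.94 and 1.20 in the same order and 1.04 in eGFP ESCs. The tSBE(6+2)-Vp64 arrays were on slide 2, and those of eGFP and the other activators on slide 1. The tSBE(6+2)-Vp64 difference from eGFP therefore cannot be separated from slide. Divided by slope, gene body minus far flanks was 0.90 in tSBE(6+2)-Vp64 and 0.96 in tSBE2-Vp64 ESCs, with eGFP ESCs above both. Without this division tSBE(6+2)-Vp64 lay above tSBE2-Vp64 ESCs. The effect of scale on the tile counts was not tested. The eGFP arrays themselves read 1.71 and 1.33 over the gene body, a gap wider than the tSBE2-Vp64 and tSBE(6+2)-Vp64 medians. The tile of largest difference was the one at exon 2 for tShh-Vp64 (-1.02) and tSBE2-Vp64 (-0.44), a tile in intron 1 for tSBE6-Vp64 (-0.74, chr5:28789001-28790000) and a tile in the far upstream flank for tSBE(6+2)-Vp64 (0.59, chr5:28801001-28802000). At the promoter segment, within which the site bound by tShh-Vp64 was not placed, tShh-Vp64 minus eGFP was -0.26. It was -0.18 for tSBE6-Vp64, -0.26 for tSBE2-Vp64 and 0.050 for tSBE(6+2)-Vp64 ESCs. On R2 arrays alone these differences were -0.075, -0.0064, -0.089 and 0.22, and on R1 arrays alone -0.45, -0.35, -0.42 and -0.12. With loess tSBE(6+2)-Vp64 was at -0.21, so its sign against eGFP is not settled.

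Set among other genes, the excess at Shh in NPCs was neither the largest nor the smallest. The window within 1 kb of the Shh TSS differed by 1.28 (SE 0.21, limma adjusted p of 5.02e-05; 0.58 with loess), the rank 24 of 80 genes with such a window, of which 55.0% were called higher and 4 lower. Of 20 other genes of the hedgehog pathway and its ventral neural targets, 5 were tiled and 4 were higher in NPCs. Foxa2, a floor plate transcription factor, differed by 1.91, Olig2, a factor of motor neuron progenitors, by 1.39, and the ventral homeobox genes Nkx2-2 and Nkx6-1 by 1.14 and 0.97. Ptch1, the hedgehog receptor, read 1.1 in NPCs and 0.33 to 0.89 in ESC populations, a difference of 0.50 that did not pass (limma adjusted p of 0.0668). The genes whose levels over the 6 populations were most like those of Shh were Hoxd11 (Pearson's r of 0.998), Hoxd12 (0.997), Evx2 (0.995), Nkx6-2 (0.995) and Lhx6 (0.993), all developmental transcription factors. The share of such factors among the 80 genes was not counted. A high r was not particular to these genes. Olig2 was at 0.983, Nkx2-2 at 0.981 and the pluripotency genes Fgf4 and Pou5f1 at 0.974 and 0.947, whereas Ptch1 was at 0.83 and Nes at -0.77.

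As a check of the cell types by the same mark, 4 of 5 marker genes were tiled. The pluripotency genes Pou5f1 and Fgf4 were higher in NPCs by 2.29 and 1.72, and the neural progenitor gene Nes was lower, at -0.051 in NPCs and 0.55 to 0.91 in ESC populations, whereas Pax6, a factor of neural progenitors, was higher by 1.22. No RNA was measured on these arrays. Around Shh, R1 and R2 correlated across positions at 0.83 to 0.91, and each population correlated with eGFP ESCs at 0.85 to 0.94. Positions well above background were 97.2% to 99.3% per array in Cy5, and in Cy3 89.9% to 98.6% on slide 1 and 72.4% to 93.5% on slide 2. The scanner files mark the spot grid as not accepted for 4 of 4 Cy3 scans on slide 2, which hold all NPC and tSBE(6+2)-Vp64 arrays. On slide 1 this held for 1 of 8 Cy3 scans (R1 of tShh-Vp64), and for 0 Cy5 scans on either slide. Its effect on the ratios was not tested. On both arrays of a population, 61 of the 434 positions were not well above background in Cy3 in tSBE(6+2)-Vp64 ESCs, 26 in NPCs and 5 to 10 in the others, and the ratio at such positions has only a bound. Among positions well above background in Cy3 on every array, gene body minus far flanks was 1.45 in NPCs and 0.25 to 0.88 in ESC populations.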

How the data were processed

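Native H3K27me3 ChIP DNA and input DNA were hybridised to 12 custom Agilent arrays, 2 for each of 6 populations. The deposited scanner files hold intensity values that the authors extracted with Feature Extraction 11.5.1.1 from 24 scans at 532 nm and 635 nm, and the deposited table holds log2 ratios with R1 and R2 combined. Its columns had medians of -0.23 to -0.11 and correlated at 0.90 to 0.94 with log2 Cy5 over Cy3, which set the direction used; its scale and centring steps are not given in the sources used here beyond the mention of limma in the submitters' processing notes. The study's own methods describe other arrays. Probe positions use mm9 and gene models are those of GENCODE vM1.

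Control spots and outlier marks were dropped, processed signals were turned into log2 ratios, the median of each array was subtracted, no loess was applied, and R1 and R2 were averaged. Where nothing states that samples came from separate cultures, p-values measure only the spread between these samples. Tiles of 1 kb with at least 5 positions (4132) were fitted with limma 3.58.1 in R 4.3.3 with Benjamini-Hochberg adjustment at 0.05, in which the lone NPC or eGFP sample is assumed to vary like the others. Contrasts along the gene used exact sign-flip tests over populations. Because all populations share the same probes, these p-values do not measure the spread across positions. On simulated data with 200 of 4132 tiles shifted, the fit of NPCs against ESCs recovered 100% of shifts of 1 with 7 false calls, and that of TALE-Vp64 against eGFP 97% with 9. The simulated tiles were drawn independently with 1 common spread, given to the lone sample as well. These recoveries therefore do not measure the power or the false calls of the fit on the real tiles. The number of arrays limits the precision.

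Named were Shh, the tile with the TSS, those with the highest mean and the largest and smallest NPC difference, the outermost called tiles, the tile of largest difference for each activator, the tiled hedgehog genes, and the 5 genes most like Shh by correlation. The members and lists were chosen with earlier results of these data known. The alternative background correction (normexp, offset 50) used the median signals of the scanner files in place of mean signals. Other alternatives were loess with scale normalization, the deposited ratios, filters on dim probes, removal of the GC trend, division by slope, other windows, tile sizes and thresholds, slide as a term, arrays as samples and left-out arrays or populations.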

Additional observations from a re-analysis of the deposited data

Results flagged for a closer look

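Among the 43 groups of 5 ESC populations looked at, 2 held a population far from the other 4, and chance sets apart about 1 in 20 such groups. At the Foxa2 TSS window tSBE(6+2)-Vp64 ESCs read 2.21, with the next population at 1.62, and it was the only ESC population on slide 2. The extent of the Shh peak was 0.5 kb in eGFP ESCs and 0.6 kb in the other 4, a gap of a single step of 100 bp of the running mean.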

How the results depend on the processing

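The 20 called tiles of NPCs against ESC populations became 8 with loess and scale normalization, 13 after division by slope, 11 of 18 with tiles of 2 kb and 12 with slide as a term, and 18 to 22 when 1 ESC population or R1 or R2 was left out. The numbers R1 and R2 did not pair the arrays (correlations of -0.12 to 0.23 over 15 pairs of populations, median 0.041). With arrays as samples, 24 tiles were called with a replicate block and 27 without. Shares of all tiles are not given here for the counts in this paragraph, so they do not set Shh apart from the array. For the activators against eGFP, 0 tiles were called under every alternative run, and 0 to 8 had an unadjusted p under 0.05.

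The window on both sides of the TSS minus the rest of the body was -0.29 within 500 bp of the TSS. It no longer passed at 0.20 with the Cy3 filter and 0.39 with medians over positions, and it was 0.22 to 0.31 with R1 or R2 left out. Exons minus introns was 0.014 with the Cy3 filter, -0.31 with normexp, -0.15 with the deposited ratios, -0.57 with medians and -0.34 on either set of arrays alone. Gene body minus far flanks no longer passed at 0.91 with normexp, 0.84 with the deposited ratios, 0.76 with the Cy3 filter, 0.86 with medians and 0.93 to 1.00 with R1 or R2 left out, although it was above 0 in all of these. Intron 1 minus intron 2 was 0.097 with the Cy3 filter, -0.082 with normexp, -0.075 with the deposited ratios, -0.14 with medians and -0.088 to -0.067 with R1 or R2 left out. The cause of these losses was not tested, apart from the construction of the adjustment, in which 1 contrast that misses the smallest exact p raises the adjusted p of the others from 0.0417.

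The extent in NPCs was 15.9 kb with a running mean of 2 kb, 19.9 kb at a log2 ratio of 1, 15.9 kb at 0.25 and 0.3 kb at 0.75 of the peak height, 0.7 kb with loess, 0.8 kb with normexp, 0.7 kb with the deposited ratios, 0.7 kb with the Cy3 filter, 0.6 kb with medians and 0.8 to 2.7 kb with R1 or R2 left out. The mean over ESC populations was 3.5, 5.38, 3.88 and 0.16 kb at the same smoothing and thresholds and 0.46 kb with the Cy3 filter. The difference at the Shh TSS window was 0.58 to 1.45 and called under every alternative run. Of 110 segment differences under the alternatives, 0 turned their sign, 30 moved by more than the spread of ESC populations, and they ranged from 0.028 to 1.58. Alternatives without NPC array R2, whose Cy3 scan alone was not detrended, and those for the contrasts of segments and of exon 3 were added after seeing the data. Cy3 is the denominator of the ratio. Its low signal over background on slide 2 therefore limits the high end of the NPC and tSBE(6+2)-Vp64 profiles.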
